A study of Macaca mulatta with 27 samples.

Results

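The genes described here are 10 subunits of the BAF chromatin remodelling complex whose paralogs are exchanged as stem cells become neurons: ACTL6A and ACTL6B, SS18 and SS18L1, the PHD-finger subunits PHF10, DPF2, DPF1 and DPF3, and the scaffold subunits SMARCC1 and SMARCC2. They were taken by symbol from the count tables, and all 10 were found among the 17967 genes listed there.

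BAF complexes, the mammalian SWI/SNF family, use ATP to slide or evict nucleosomes, and each complex is put together from subunits that mostly exist as interchangeable paralogs. Stem cells and dividing progenitors build complexes with ACTL6A, SS18, PHF10 or DPF2, and a high share of SMARCC1, whereas neurons that have left the cell cycle replace them with ACTL6B, SS18L1, DPF1 or DPF3, and SMARCC2 gains weight on the way. In neurons, the repressor REST and its corepressors are lost, microRNAs that silence ACTL6A become active, and the splicing repressor PTBP1 gives way to PTBP2. In the text below, stem-type and neuron-type refer to this textbook assignment only.

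The RNA came from a clonal rhesus macaque embryonic stem cell line, LyonES-tGFP-(S3), which carries a tauGFP transgene under the ubiquitous CAG promoter and a lentiviral STAT3-ER T2 fusion that tamoxifen activates. Every group, primed cells included, carries both transgenes and derives from this 1 clone. The groups were primed cells, the starting state (6 libraries), and cells reprogrammed with 7 protocols intended to give naive pluripotency, namely TL2i, TL-CDK8i, t2iLGöY, 4i/L/b, LCDM (EPS), NHSM-v and E-NHSM (3 libraries each). TL2i combined tamoxifen and LIF with inhibitors of MEK and GSK3β, and TL-CDK8i replaced these inhibitors with an inhibitor of CDK8 and its paralog, while the other protocols were applied without tamoxifen. The 6 primed libraries form 2 sets, lettered J and K in the count tables, of 3 libraries each. Nothing in the labels says that libraries of a group came from separate cultures, so the p-values measure the spread between these libraries, which may be technical.

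The libraries held 7111886 to 20760914 counts (median 12201171), and 3 counts, taken as the detection floor of a library, corresponded to 0.138 to 0.422 CPM, the count scaled to the library size and normalised by TMM over all 27 libraries. Cells of the 7 protocols are labelled naive, yet the summed level of 9 pluripotency genes, 5987 to 6943 CPM in primed and 6873 to 6941 CPM in E-NHSM libraries, was 1811 to 2495 CPM in TL-CDK8i and between 34.6 and 537 CPM in the libraries of the other 5 protocols. NANOG was at or under the floor in all libraries of NHSM-v, 4i/L/b, t2iLGöY and LCDM (EPS). In bulk samples such as these, fewer cells of a type and less RNA per cell cannot be told apart.

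**Figure D1:**
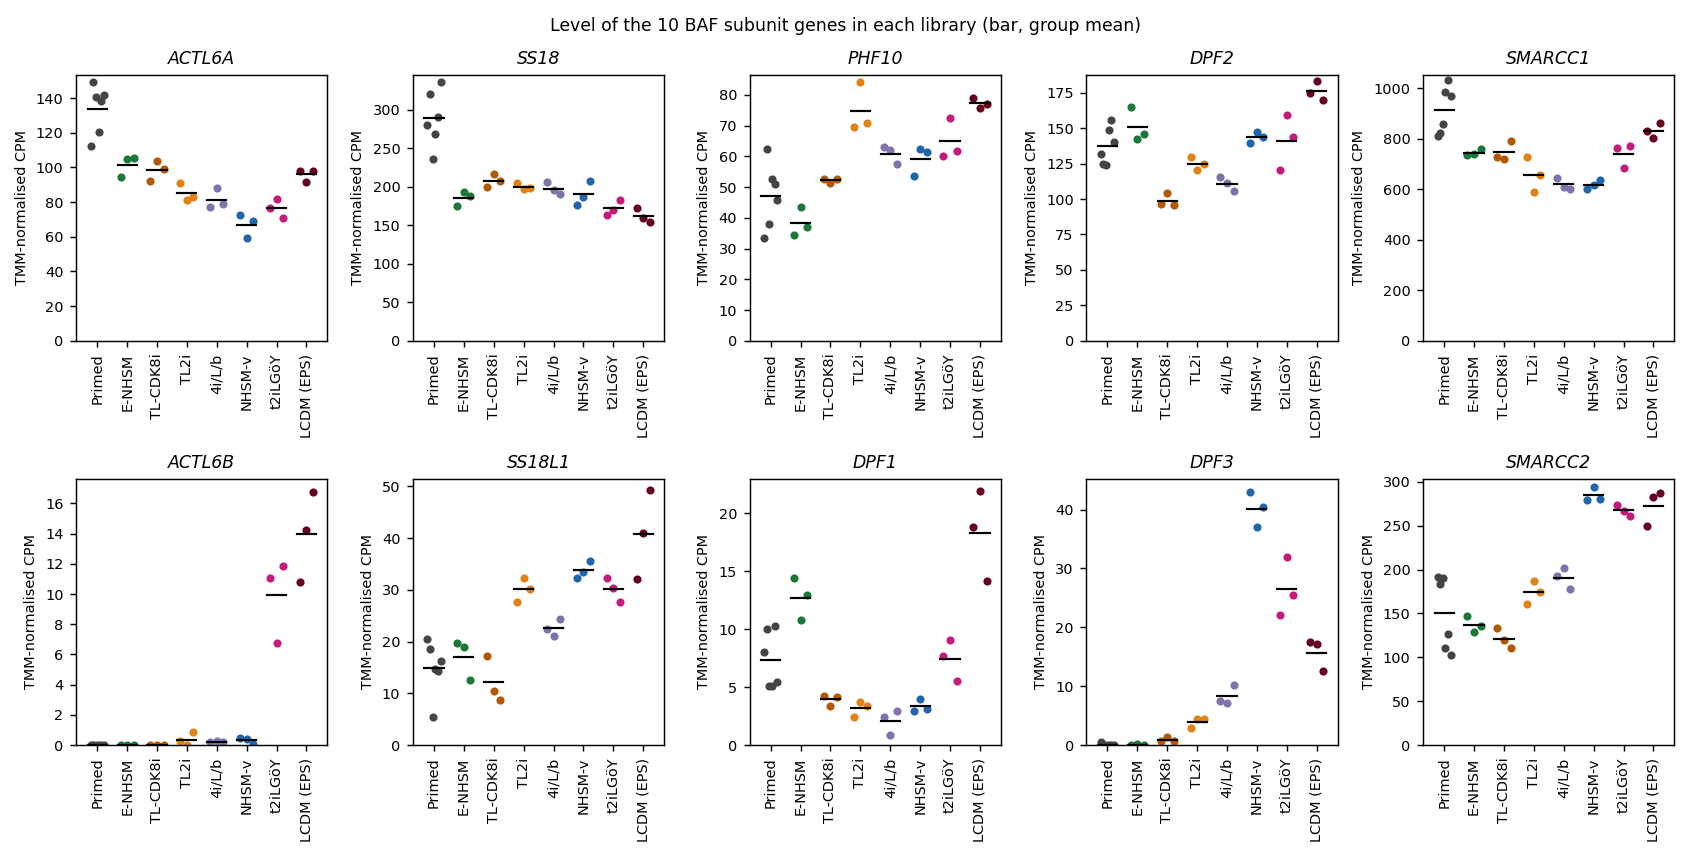
Each panel plots 1 gene, with TMM-normalised CPM on a linear axis from 0 and 1 point per library; bars are group means, and stem-type genes stand in the upper row with their neuron-type counterparts in the lower row (SMARCC2 under SMARCC1). ACTL6B rose above 1 CPM in t2iLGöY and LCDM (EPS) libraries and in no others, DPF3 was highest in NHSM-v, and every primed library held more ACTL6A and SS18 than any library of the 7 protocols.

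ACTL6A encodes the actin-related subunit of stem cell and progenitor BAF, which also serves in other remodelling and acetyltransferase complexes. It was lower than in primed cells after all 7 protocols. Primed libraries held 112 to 149 CPM with a median of 139.5 CPM. The lowest values were those of NHSM-v, at 72.5, 59.5 and 68.9 CPM, and the least reduced group, E-NHSM, had 94.2, 105 and 105 CPM. No library of any protocol reached the lowest primed library. The log2 fold change was -1.05 in NHSM-v (SE 0.12, adjusted p = 2.64e-06 by edgeR's quasi-likelihood test), -0.78 in t2iLGöY, -0.77 in 4i/L/b, -0.65 in TL2i, -0.48 in TL-CDK8i, -0.44 in LCDM (EPS) and -0.40 in E-NHSM (SE 0.11, adjusted p = 0.0132). The E-NHSM call was lost without E-NHSM replicate 1, where the log2 fold change was -0.34 and the adjusted p 0.0900, the highest of a range that began at 0.00125 over 16 alternatives. The alternatives counted here and below leave out the requirement of an absolute log2 fold change of at least 1, which no smaller change can meet.

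ACTL6B, the neuron-restricted counterpart of ACTL6A, was not detected in primed cells: none of the 6 libraries held a single read of it, and the same was true of the 3 E-NHSM and the 3 TL-CDK8i libraries. A count of 0 allows up to 3 counts, which at these depths is at most 0.422 CPM in primed libraries. The gene was clearly present after only 2 protocols. t2iLGöY libraries held 163, 101 and 165 counts (11.1, 6.76 and 11.9 CPM), and LCDM (EPS) libraries 194, 309 and 316 counts (10.8, 14.3 and 16.8 CPM). Set against a floor of 3 counts in each primed library, ACTL6B was at least 32.7-fold higher in t2iLGöY (adjusted p = 2.51e-05). In LCDM (EPS) it was at least 46.0-fold higher (adjusted p = 4.41e-06).

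Between these extremes, ACTL6B lay close to the floor. 4i/L/b libraries held 2, 2 and 2 counts, NHSM-v libraries 4, 4 and 1, and TL2i libraries 5, 0 and 12. The gene was too low for the test in these 3 groups, as in E-NHSM and TL-CDK8i, and it entered the test in t2iLGöY and LCDM (EPS) only through the libraries in which it was high. The ranges of t2iLGöY and LCDM (EPS) overlapped. With both genes of the pair detected, the log2 ratio of ACTL6A over ACTL6B was 2.97 ± 0.53 in t2iLGöY and 2.79 ± 0.33 in LCDM (EPS) (SD, n = 3). No ratio is given for the other groups, in which it would be set by the prior count of 2 added to ACTL6B.

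SS18 and SS18L1 encode related coactivator subunits, of which SS18 is the form of dividing cells and SS18L1, also called CREST, a calcium-responsive form required for dendrite growth. SS18 was lower after all 7 protocols, and the groups did not overlap with primed cells. Primed libraries held 236 to 337 CPM (median 285.9 CPM). LCDM (EPS) was lowest, at 172, 160 and 155 CPM, a log2 fold change of -0.80 (SE 0.10, adjusted p = 1.51e-05). TL-CDK8i was least reduced, at 200, 216 and 207 CPM, a log2 fold change of -0.51 (SE 0.10, adjusted p = 0.00114). The other 5 protocols lay between -0.53 and -0.71, and the call held in these 16 alternatives of each of the 7 comparisons. None of the 7 calls met the requirement of an absolute log2 fold change of at least 1.

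SS18L1 rose in 4 of the 7 protocols. Primed libraries held 5.35 to 20.5 CPM with a median of 15.5 CPM, and the lowest, J3, had only 38 counts while the other 5 held 14.4 CPM or more. LCDM (EPS) libraries held 32.2, 40.9 and 49.3 CPM, a log2 fold change of 1.48 (SE 0.29, adjusted p = 6.03e-04). NHSM-v libraries, at 32.3, 33.5 and 35.5 CPM, were next with 1.12, followed by t2iLGöY with 1.04 and TL2i with 1.01. All libraries of these 4 protocols lay above all 6 primed libraries, J3 or not.

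In the remaining 3 groups SS18L1 did not pass the test. The 4i/L/b libraries, at 22.4, 21.2 and 24.3 CPM, were also above every primed library, but the log2 fold change of 0.55 had an SE of 0.30 and an adjusted p of 0.143. E-NHSM (0.19) and TL-CDK8i (-0.34) overlapped with primed cells. With primed set K alone, which leaves out J3, the 4i/L/b difference of 0.57 passed with an adjusted p of 0.0132, and with set J alone the TL2i difference of 1.0 missed with 0.0569. These were the lowest and the highest adjusted p, respectively, of 16 alternatives each, which ran up to 0.303 for 4i/L/b and down to 2.30e-04 for TL2i.

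The PHD-finger subunits read modified histone tails, and in textbook accounts PHF10 and DPF2 occupy this position in stem cells and progenitors, and DPF1 and DPF3 in neurons. They did not follow that grouping. PHF10 was higher than in primed cells in TL2i, t2iLGöY and LCDM (EPS), and lower in none. Primed libraries held 33.5 to 62.3 CPM (median 48.3 CPM). LCDM (EPS) libraries held 79.1, 75.8 and 76.9 CPM, a log2 fold change of 0.75 (SE 0.16, adjusted p = 0.00137). TL2i libraries, at 69.6, 84.1 and 70.7 CPM, gave 0.67 (SE 0.17, adjusted p = 0.00451), and neither group overlapped with primed cells. In t2iLGöY, at 60.2, 72.5 and 61.9 CPM, the values overlapped with those of primed cells, and the log2 fold change of 0.49 (adjusted p = 0.0288) rested on single libraries: it missed the threshold without t2iLGöY replicate 2 (0.41, adjusted p = 0.125) or 3 (adjusted p = 0.0556), and without primed J1 (adjusted p = 0.0555) or K3 (adjusted p = 0.0647). Without primed J2, the highest primed library, PHF10 also passed in NHSM-v (0.42, adjusted p = 0.0412) and 4i/L/b (0.45, adjusted p = 0.0245). Over all alternatives the adjusted p ran from 0.00262 to 0.125 in t2iLGöY, from 0.0412 to 0.374 in NHSM-v and from 0.0201 to 0.246 in 4i/L/b.

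DPF2, a broadly expressed reader of acetylated histone tails, was lower after 2 protocols and higher after 1. It was lower in TL-CDK8i, at 96.6, 104 and 96.0 CPM against 124 to 156 CPM in primed libraries (median 135.9 CPM), a log2 fold change of -0.51 (SE 0.10, adjusted p = 7.69e-04). It was also lower in 4i/L/b, at 115, 111 and 106 CPM, with -0.36 (SE 0.09, adjusted p = 0.00463). In LCDM (EPS) it was higher, at 175, 183 and 170 CPM, with 0.39 (SE 0.09, adjusted p = 0.00172). These 3 groups did not overlap with primed cells, and the other 4 protocols did not pass.

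DPF1, one of the neuron-type PHD-finger genes, was present at a low level in primed cells and moved in both directions. Primed libraries held 5.07 to 10.3 CPM (median 6.74 CPM). LCDM (EPS) libraries held 18.8, 21.9 and 14.2 CPM, all above the primed range, a log2 fold change of 1.36 (SE 0.31, adjusted p = 0.00173). In 4i/L/b the gene fell to 2.41, 0.861 and 2.90 CPM (25, 7 and 30 counts), a log2 fold change of -1.86 (SE 0.51, adjusted p = 0.00711), which held in all 15 alternatives that could be fitted.

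The levels of DPF1 in NHSM-v (2.99, 3.99 and 3.14 CPM) and TL2i (2.44, 3.74 and 3.39 CPM) were also under every primed library. Their log2 fold changes of -1.16 (SE 0.45, adjusted p = 0.0386) and -1.20 (SE 0.43, adjusted p = 0.0310) were close to the threshold. In NHSM-v only 7 of 16 alternatives called it: the call was lost without any 1 of its 3 libraries, without primed J1, J2 or K2, against set J alone (adjusted p = 0.0750) or K alone (adjusted p = 0.0788) and with no filter on low counts (adjusted p = 0.0625), and the adjusted p ran from 0.00579 to 0.121. In TL2i 11 of 16 alternatives called it, and it was lost without any 1 of its 3 libraries and without primed J2 or K2, with adjusted p from 0.00402 to 0.124. The same calls kept their direction throughout, with log2 fold changes from -1.30 to -1.0 in NHSM-v and from -1.32 to -1.03 in TL2i. TL-CDK8i, at 4.26, 3.40 and 4.19 CPM, missed the threshold (-0.92, SE 0.41, adjusted p = 0.0835) although all 3 libraries were under the primed range, and passed without primed J3 (-1.0, adjusted p = 0.0412, of a range from 0.0354 to 0.230). E-NHSM libraries, at 14.5, 10.8 and 12.9 CPM, were all above the primed range, and the log2 fold change of 0.80 had an adjusted p of 0.0861. It passed in 2 of 16 alternatives, a single fit over all groups (adjusted p = 0.0453) and primed set K alone (adjusted p = 0.0460), of a range up to 0.2725.

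DPF3, the other neuron-type PHD-finger gene, which is also known from heart and skeletal muscle, rose from near absence in primed cells. All 6 primed libraries together held 5 counts, 4 of them in J1 and 1 in K2, and the 3 E-NHSM libraries held 3 counts, all in replicate 2. NHSM-v libraries held 375, 352 and 450 counts (43.1, 37.0 and 40.4 CPM). t2iLGöY libraries held 326, 478 and 353 counts (22.1, 32.0 and 25.4 CPM), and LCDM (EPS) libraries 314, 372 and 236 counts (17.5, 17.2 and 12.5 CPM). The order continued with 4i/L/b at 7.43, 7.14 and 10.3 CPM, TL2i at 2.83, 4.50 and 4.37 CPM and TL-CDK8i at 0.691, 1.32 and 0.666 CPM, and from primed cells upwards no group overlapped with its neighbour.

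Because the primed level of DPF3 rests on 5 counts, its ratios are given from pooled counts per pooled library size with a 95% interval that covers counting error only. The ratio to primed cells was 499 in NHSM-v (interval 213 to 1540), 331 in t2iLGöY (141 to 1021), 196 in LCDM (EPS) (83.9 to 606), 104 in 4i/L/b (44.0 to 324) and 47.4 in TL2i (19.98 to 148). It was 11 in TL-CDK8i (4.14 to 36.8), where the test was not run for lack of counts, and 0.645 in E-NHSM (0.100 to 3.32), where no difference was detectable at this depth. In the 5 protocols with a test, DPF3 was higher with an adjusted p between 4.64e-09 in NHSM-v and 0.00130 in TL2i, in every alternative that could be fitted. It entered these tests only through the group in which it was high.

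SMARCC1 and SMARCC2 form the dimer that scaffolds the complex, with SMARCC1 prevailing in stem cells. SMARCC1 was lower after 6 of the 7 protocols. Primed libraries held 811 to 1033 CPM (median 913.8 CPM). NHSM-v (600, 616 and 639 CPM) and 4i/L/b (646, 611 and 602 CPM) were lowest, each with a log2 fold change of -0.61 (SE 0.08, adjusted p = 8.64e-06 and 2.32e-05). TL2i had -0.47, TL-CDK8i -0.32, E-NHSM -0.29 and t2iLGöY -0.27, and no library of these 6 groups reached the lowest primed library.

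LCDM (EPS), at 830, 803 and 862 CPM, overlapped with primed cells in SMARCC1, with a log2 fold change of -0.10 (SE 0.07, adjusted p = 0.282). Set J of the primed libraries, at 811, 824 and 858 CPM, lay below set K, at 986, 1033 and 970 CPM, a log2 difference of 0.22 for K against J with an adjusted p of 0.0529. Against set J alone SMARCC1 missed the threshold in TL-CDK8i (-0.19, adjusted p = 0.0568, the highest of a range from 4.19e-04) and t2iLGöY (-0.16, adjusted p = 0.0780), and against set K alone it passed in LCDM (EPS) (-0.21, adjusted p = 0.00426, the lowest of a range up to 0.665). The t2iLGöY call was also lost without t2iLGöY replicate 2 (-0.21, adjusted p = 0.0724, of a range from 2.58e-04 to 0.0780).

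SMARCC2 was higher in 3 protocols, which were also the 3 with the highest level of DPF3. NHSM-v libraries held 279, 294 and 281 CPM, t2iLGöY libraries 274, 267 and 261 CPM, and LCDM (EPS) libraries 249, 282 and 287 CPM, all above the highest primed library at 191 CPM. The log2 fold changes were 0.87 (SE 0.19, adjusted p = 9.32e-04), 0.86 (SE 0.19, adjusted p = 0.00128) and 0.89 (SE 0.19, adjusted p = 0.00125), and they passed against either primed set.

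The 2 primed sets did not overlap in SMARCC2, with 191, 183 and 190 CPM in set J and 110, 127 and 102 CPM in set K. K was lower than J by a log2 fold change of -0.77 (SE 0.11, adjusted p = 7.12e-04). SMARCC2 was the only member called between the sets, where 2.03% of 12559 genes tested were higher and 1.70% lower in K. The other 4 protocols therefore changed their standing with the set used as reference. Against J, SMARCC2 was lower in E-NHSM (-0.46, adjusted p = 0.00159) and TL-CDK8i (-0.67, adjusted p = 3.92e-04). Against K it was higher in 4i/L/b (0.74, adjusted p = 2.08e-05), TL2i (0.63, adjusted p = 2.28e-04) and E-NHSM (0.30, adjusted p = 0.0232), so that E-NHSM was called in opposite directions against the 2 sets. None of these 4 groups passed against all 6 primed libraries when only the compared groups were fitted (log2 fold changes -0.13, -0.35, 0.29 and 0.21), and over all alternatives the adjusted p ran up to 0.886, 0.553, 0.851 and 0.630 in the order named. In a single fit over all groups, 4i/L/b did pass (0.33, adjusted p = 0.0419).

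**Figure D2:**
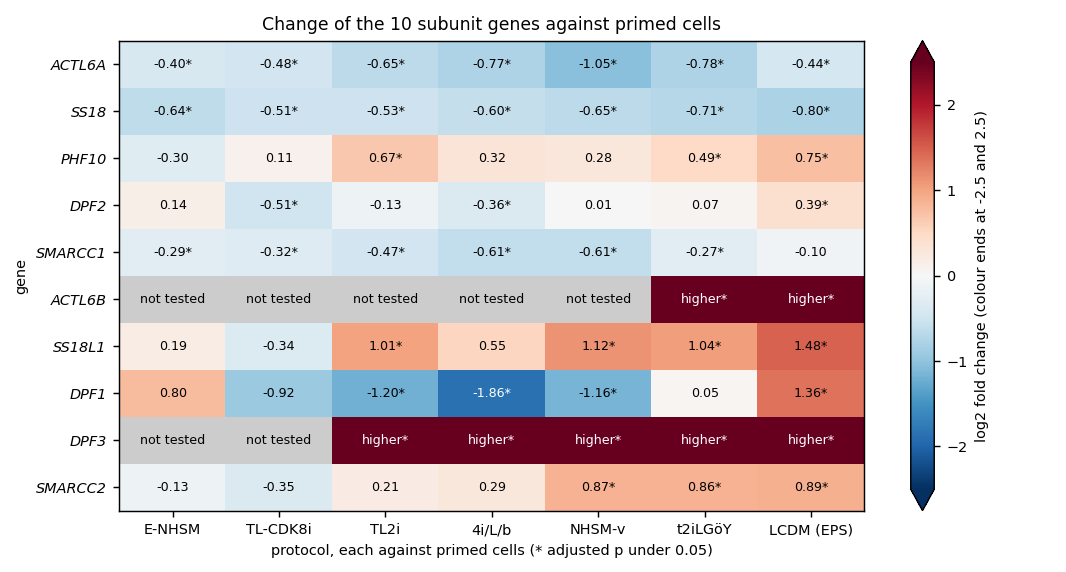
The heat map shows the log2 fold change of each of the 10 genes (rows) in each protocol against primed cells (columns), with an asterisk at an adjusted p under 0.05 and grey where the gene was too low to be tested; the colour scale ends at -2.5 and 2.5. ACTL6A and SS18 were lower in all 7 columns, and the fitted sizes for ACTL6B and DPF3, which depend on the prior count, are replaced by the word higher.

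Counted by protocol, LCDM (EPS) had the most members called and E-NHSM the fewest. In LCDM (EPS), 7 of 10 members tested were higher and 2 lower, against 28.2% of all genes tested higher and 28.9% lower. In t2iLGöY, 5 of 10 were higher and 3 lower, against 27.1% and 27.2%. In both groups ACTL6B and DPF3 are among the higher, and the 7 members higher in LCDM (EPS) comprise both stem-type PHD-finger genes as well as the 5 neuron-type genes.

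In NHSM-v, 3 of 9 members tested were higher (SS18L1, DPF3 and SMARCC2) and 4 lower (ACTL6A, SS18, DPF1 and SMARCC1), against 28.0% of all genes higher and 30.6% lower. In TL2i, 3 of 9 were higher and 4 lower, against 25.6% and 25.2%, and in 4i/L/b 1 of 9, DPF3, was higher and 5 lower, against 26.6% and 29.0%. In TL-CDK8i none of 8 was higher and 4 were lower (ACTL6A, SS18, DPF2 and SMARCC1), against 22.3% and 23.8%. In E-NHSM none of 8 was higher and 3 were lower (ACTL6A, SS18 and SMARCC1), against 11.1% and 15.1%. For TL-CDK8i and E-NHSM, DESeq2 gave the same numbers of called members as edgeR, 4 and 3.

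The median log2 fold change of the members tested was 0.82 in LCDM (EPS), 0.28 in t2iLGöY, 0.01 in NHSM-v, -0.13 in TL2i, -0.21 in E-NHSM, -0.36 in 4i/L/b and -0.42 in TL-CDK8i, while that of all genes tested stayed between -0.02 and 0.07. These medians are over 8 to 10 members, since ACTL6B and DPF3 entered only where they were high. Over the 8 members tested against primed cells in every protocol, the median was 0.57 in LCDM (EPS), 0.06 in t2iLGöY, -0.21 in E-NHSM, -0.30 in NHSM-v, -0.30 in TL2i, -0.42 in TL-CDK8i and -0.48 in 4i/L/b. With so few members and opposite signs among them, the medians only describe this list. The 7 comparisons share the 6 primed libraries.

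**Figure D3:**
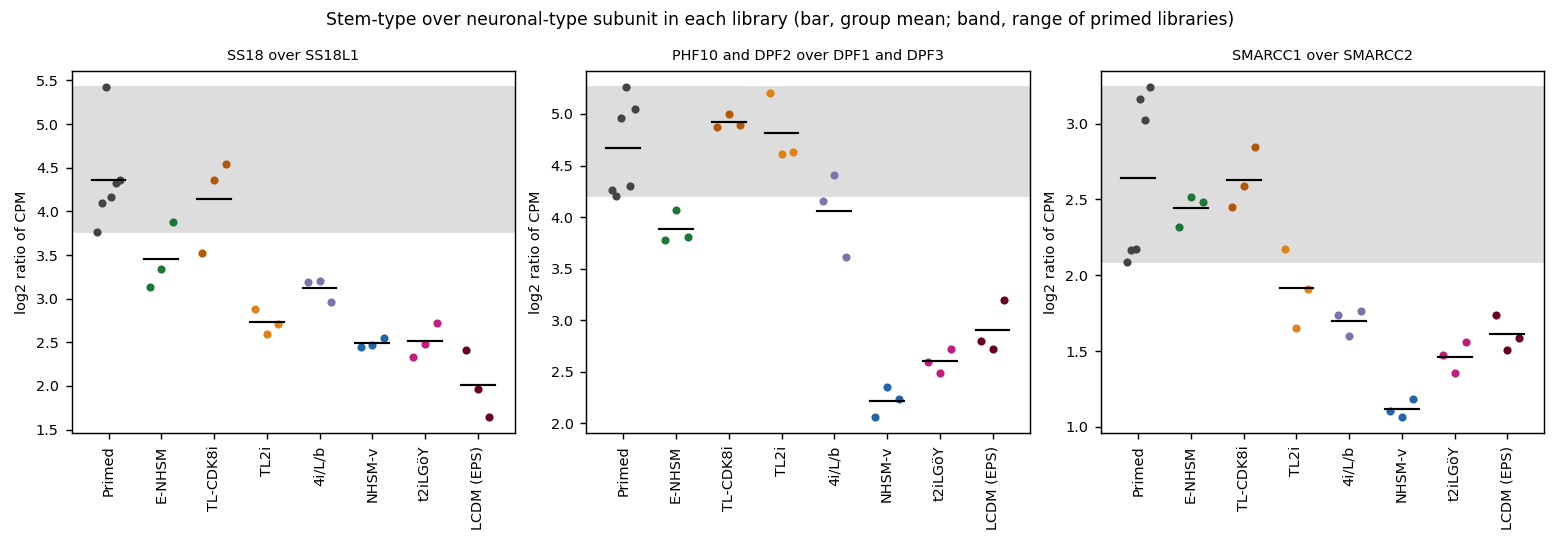
Each panel plots, per library, the log2 ratio of CPM of stem-type over neuron-type subunits, with bars for group means and a grey band for the range of the 6 primed libraries. SS18 over SS18L1 lay under the band in 5 protocols, PHF10 and DPF2 over DPF1 and DPF3 in 4, and SMARCC1 over SMARCC2 in 4, and NHSM-v, t2iLGöY and LCDM (EPS) were under it in all 3 panels.

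Within each library, the balance of paralogs was expressed as a log2 ratio, which is described here without a test. Differences between groups can be compared for ratios of single genes, in which transcript length cancels. For the summed PHD-finger genes it does not cancel where their shares of the sum change. The ratio itself is not one of molecules, since the counts were not divided by transcript length. The ratio of SS18 over SS18L1 was 4.36 ± 0.56 in primed cells (SD, n = 6). It was 2.01 ± 0.38 in LCDM (EPS), 2.49 ± 0.05 in NHSM-v, 2.51 ± 0.20 in t2iLGöY, 2.73 ± 0.14 in TL2i and 3.12 ± 0.14 in 4i/L/b (SD, n = 3 each), differences of -2.35, -1.87, -1.85, -1.63 and -1.24 from primed cells. None of these 5 groups overlapped with primed cells, whereas E-NHSM (3.45 ± 0.39) and TL-CDK8i (4.14 ± 0.54) did. In LCDM (EPS), NHSM-v, t2iLGöY and TL2i, SS18 was called lower and SS18L1 higher, while in 4i/L/b only SS18 passed.

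For the PHD-finger subunits, the summed CPM of PHF10 and DPF2 was set over that of DPF1 and DPF3. The log2 ratio was 4.67 ± 0.47 in primed cells (SD, n = 6) and lower, without overlap, in NHSM-v by a difference of -2.46, in t2iLGöY by -2.07, in LCDM (EPS) by -1.76 and in E-NHSM by -0.79. TL2i (4.81 ± 0.34), TL-CDK8i (4.92 ± 0.07) and 4i/L/b (4.06 ± 0.41) overlapped with primed cells. In TL2i and 4i/L/b, DPF1 was lower and DPF3 higher than in primed cells. In NHSM-v these genes also moved apart, and the summed neuron-type level there was mostly DPF3, at a mean of 40.1 CPM against 3.37 CPM of DPF1. In LCDM (EPS) both were higher, with means of 15.7 and 18.3 CPM. In E-NHSM the lower ratio came with DPF1 at a mean of 12.7 CPM and DPF3 at 0.0555 CPM. The primed sum was also mostly DPF1, at a mean of 7.32 CPM against 0.0859 CPM of DPF3. Where DPF3 makes up more of the sum, the difference from primed cells also depends on the transcript lengths of DPF1 and DPF3, which were not used.

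The log2 ratio of SMARCC1 over SMARCC2 was 2.64 ± 0.55 in primed cells (SD, n = 6), with 2.08 to 2.17 in set J and 3.02 to 3.24 in set K. NHSM-v was lowest at 1.12 ± 0.06, followed by t2iLGöY at 1.46 ± 0.10, LCDM (EPS) at 1.61 ± 0.12 and 4i/L/b at 1.70 ± 0.09 (SD, n = 3 each), all under both primed sets. TL2i (1.91 ± 0.26), E-NHSM (2.44 ± 0.10) and TL-CDK8i (2.63 ± 0.20) overlapped with the primed range, and the latter pair lay between the primed sets.

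2 pairs of related protocols were compared directly, so that their difference itself was tested. TL-CDK8i shares tamoxifen and LIF with TL2i and differs in the kinase inhibitors. Of 9 members tested, none was higher in TL-CDK8i and 5 were lower, against 31.5% of all genes tested higher and 33.3% lower. SS18L1 showed this at 17.3, 10.4 and 8.75 CPM in TL-CDK8i against 27.7, 32.4 and 30.2 CPM in TL2i, a log2 fold change of -1.34 (SE 0.21, adjusted p = 6.40e-05). DPF3 was lower by a log2 fold change of -2.14 (SE 0.42, adjusted p = 5.36e-04), SMARCC2 of -0.55, PHF10 of -0.54 and DPF2 of -0.36. DPF3 entered this test only through TL2i, in which it was higher. All 5 were lower in each of 3 TL-CDK8i libraries than in any TL2i library.

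ACTL6A, SS18 and SMARCC1, which were lower than in primed cells in both TL2i and TL-CDK8i, did not pass between them. ACTL6A was 0.19 higher in TL-CDK8i (SE 0.09, adjusted p = 0.0910) and SMARCC1 0.17 higher (SE 0.10, adjusted p = 0.159) on the log2 scale. Both passed without TL2i replicate 1, with 0.26 (adjusted p = 0.0462) and 0.27 (adjusted p = 0.0371), the lowest adjusted p of 12 alternatives that ran up to 0.229 and 0.368. SS18 differed by 0.03 (SE 0.08) and DPF1 by 0.30 (SE 0.31).

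NHSM-v and E-NHSM are variants of 1 protocol family, and here 4 of 9 members tested were higher in NHSM-v and 3 lower, against 33.4% and 34.8% of all genes tested. SMARCC2 was higher by 1.02 on the log2 scale (SE 0.07, adjusted p = 1.25e-08), at 279, 294 and 281 CPM against 147, 129 and 136 CPM. SS18L1 was higher by 0.94 (SE 0.20, adjusted p = 8.68e-04) and PHF10 by 0.59 (SE 0.14, adjusted p = 0.00183). DPF3 had 1177 counts in the 3 NHSM-v libraries against 3 in those of E-NHSM, a ratio of 773 (counting interval 264 to 3756). It entered the test only through NHSM-v. DPF1 went the other way, with 2.99, 3.99 and 3.14 CPM against 14.5, 10.8 and 12.9 CPM, a log2 fold change of -1.95 (SE 0.34, adjusted p = 1.43e-04). ACTL6A was lower by -0.64 and SMARCC1 by -0.31, while SS18 (0.00, SE 0.08) and DPF2 (-0.11, SE 0.08) did not pass.

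**Figure D4:**
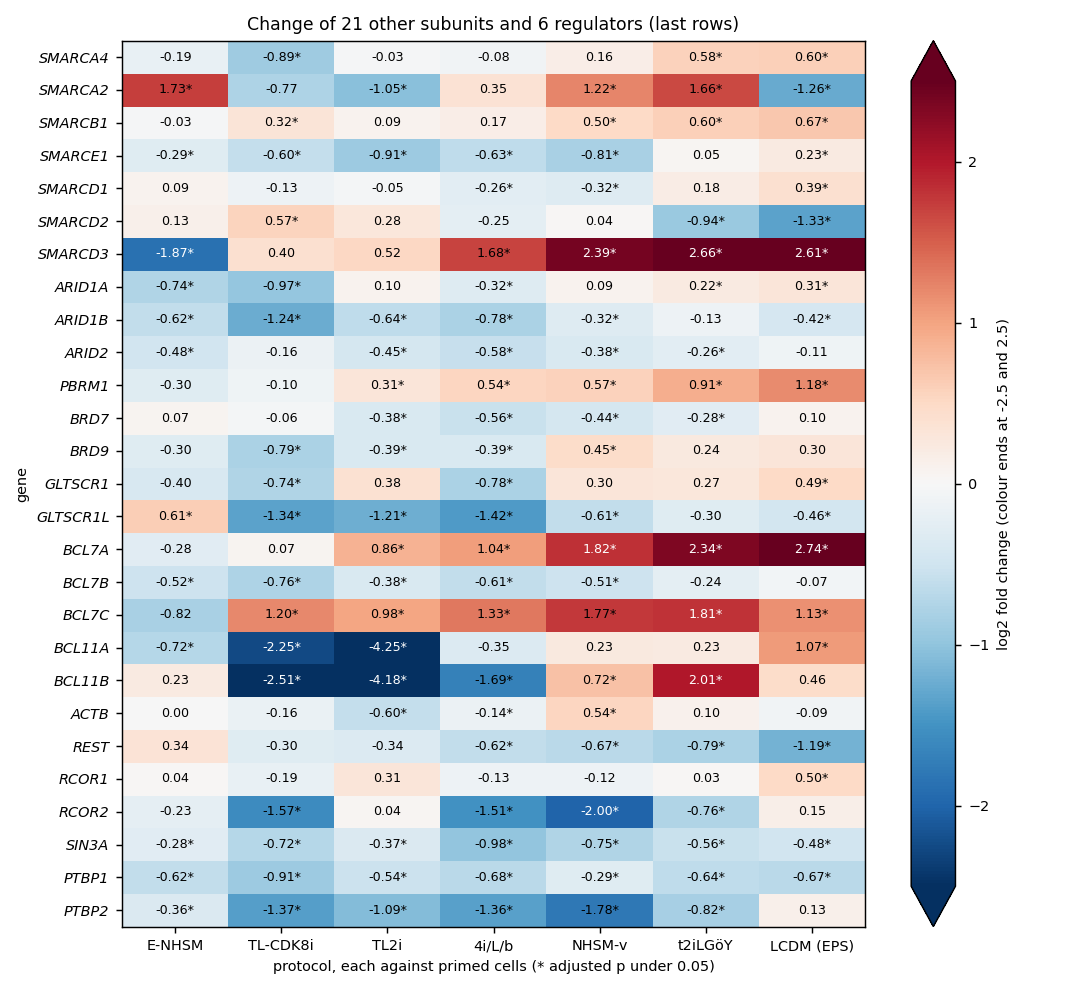
The heat map shows the log2 fold change against primed cells of 21 other subunit genes and, in the last 6 rows, regulators of the subunit switch, with protocols in columns and an asterisk at an adjusted p under 0.05; the colour scale ends at -2.5 and 2.5. SMARCD3 and BCL7A were higher in 4i/L/b, NHSM-v, t2iLGöY and LCDM (EPS), and PTBP1 and SIN3A lower in all 7 columns.

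The rest of the complex was looked at through 21 further subunit genes of the BAF, PBAF and non-canonical BAF forms, all of which were tested in every comparison. In LCDM (EPS) 11 were higher and 4 lower, where 28.2% and 28.9% of all genes tested were, in t2iLGöY 9 and 3 (27.1% and 27.2%), and in NHSM-v 9 and 7 (28.0% and 30.6%). In 4i/L/b 4 were higher and 12 lower (26.6% and 29.0%), in TL2i 3 and 11 (25.6% and 25.2%), in TL-CDK8i 3 and 10 (22.3% and 23.8%) and in E-NHSM 2 and 7 (11.1% and 15.1%). Their median log2 fold change was 0.31, 0.23, 0.23, -0.32, -0.38, -0.60 and -0.29 in the same order, beside medians of all genes tested between -0.02 and 0.07.

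Of these, 7 passed with an absolute log2 fold change of at least 1 in 3 or more protocols. SMARCD3, a member of a further paralog family of the complex that is known from muscle and neurons, had 6.06 ± 2.79 CPM in primed cells (SD, n = 6) and rose to 37.2 ± 4.49 CPM in t2iLGöY, 35.7 ± 2.51 CPM in LCDM (EPS), 32.6 ± 7.20 CPM in NHSM-v and 20.03 ± 1.16 CPM in 4i/L/b (SD, n = 3 each). It fell in E-NHSM by a log2 fold change of -1.87. BCL7A, a nucleosome-facing subunit, rose from 16.9 ± 5.64 CPM in primed cells to 110.0 ± 2.59 CPM in LCDM (EPS), and in 5 of the 7 protocols in all. BCL7C rose in 6, with the highest mean, 45.8 ± 5.52 CPM, in NHSM-v.

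SMARCA2, the alternative ATPase of the complex, moved in both directions. It rose by a log2 fold change of 1.73 in E-NHSM, 1.66 in t2iLGöY and 1.22 in NHSM-v, and fell by -1.26 in LCDM (EPS) and -1.05 in TL2i. BCL11A and BCL11B, zinc finger subunits of neural and lymphoid cells, were lowest in TL2i, at 1.88 ± 0.61 and 0.692 ± 0.14 CPM against 36.1 ± 7.19 and 12.6 ± 4.07 CPM in primed cells, and were also lower in TL-CDK8i (-2.25 and -2.51). BCL11A was in addition lower in E-NHSM (-0.72) and higher in LCDM (EPS) (1.07). BCL11B was lower in 4i/L/b (-1.69) and higher in t2iLGöY (2.01) and NHSM-v (0.72). GLTSCR1L, the older symbol of BICRAL, a subunit of non-canonical BAF, fell by more than 1 on the log2 scale in 4i/L/b (-1.42), TL-CDK8i (-1.34) and TL2i (-1.21). It was also lower in NHSM-v (-0.61) and LCDM (EPS) (-0.46) and higher in E-NHSM (0.61).

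Among 6 regulators of the switch, 5 were lower in NHSM-v (beside 30.6% of all genes tested), 4i/L/b (29.0%) and t2iLGöY (27.2%), 4 in TL-CDK8i (23.8%), and 3 in E-NHSM (15.1%), TL2i (25.2%) and LCDM (EPS) (28.9%). The only regulator called higher against primed cells was RCOR1 in LCDM (EPS), where 28.2% of all genes were higher. RCOR2, a corepressor partner of REST, fell most in NHSM-v (-2.0), TL-CDK8i (-1.57) and 4i/L/b (-1.51). PTBP2, the splicing regulator of young neurons, did not rise where neuron-type subunits did: it fell by -1.78 in NHSM-v and -0.82 in t2iLGöY and had a log2 fold change of 0.13 in LCDM (EPS) that did not pass. The fall was not particular to these groups, with -1.37 in TL-CDK8i, -1.36 in 4i/L/b, -1.09 in TL2i and -0.36 in E-NHSM, all called. The following 3 genes were singled out after their values had been seen. REST was lowest in LCDM (EPS), at 98.9 ± 7.03 CPM (SD, n = 3) against 232 ± 48.0 CPM in primed cells (SD, n = 6), a log2 fold change of -1.19. REST was also called lower in t2iLGöY (-0.79), NHSM-v (-0.67) and 4i/L/b (-0.62). It did not pass in TL2i (-0.34), TL-CDK8i (-0.30) and E-NHSM (0.34). PTBP1 and SIN3A were lower in all 7 protocols, with log2 fold changes between -0.91 and -0.29 for PTBP1 and between -0.98 and -0.28 for SIN3A.

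**Figure D5:**
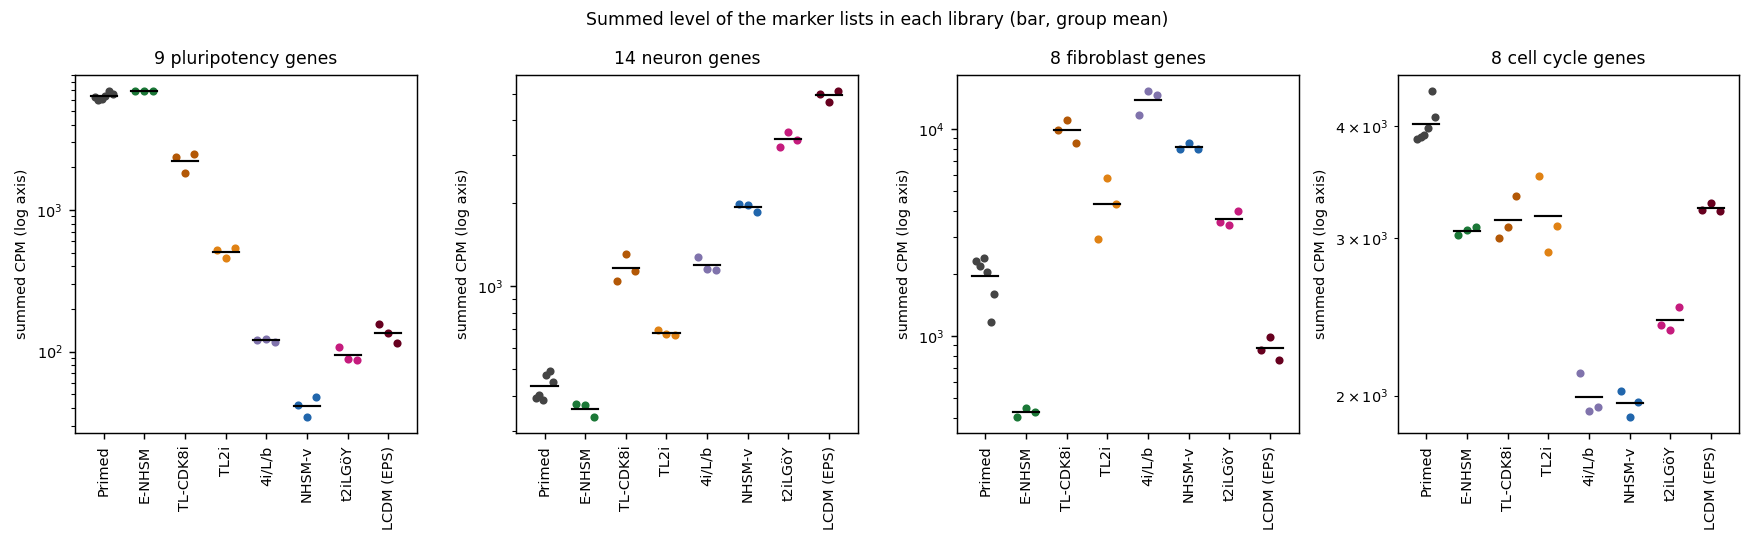
Summed CPM of 4 marker lists is plotted per library on log axes, with bars for group means. The neuron list was highest in LCDM (EPS), at 4670 to 5114 CPM, and the pluripotency list was lowest in NHSM-v, at 34.6 to 47.6 CPM.

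Marker lists of other cell types also differed between the groups, not always along with the members. The summed level of 14 neuron genes was 386 to 494 CPM in primed and 337 to 373 CPM in E-NHSM libraries. It was 666 to 693 CPM in TL2i, 1049 to 1309 CPM in TL-CDK8i, 1150 to 1279 CPM in 4i/L/b, 1855 to 1986 CPM in NHSM-v, 3212 to 3627 CPM in t2iLGöY and 4670 to 5114 CPM in LCDM (EPS). No neuron gene of the list was at the floor in all libraries of a group. Not every gene rose. Those called higher and lower were 11 and 2 of 14 in LCDM (EPS), 11 and 1 in t2iLGöY and 10 and 4 in 4i/L/b. They were 9 and 3 in NHSM-v and 7 and 4 in TL2i. In TL-CDK8i they were 8 and 1 of 13, and in E-NHSM 3 and 4 of 12. Of all genes tested, 11.1% to 28.2% were higher and 15.1% to 30.6% lower. ACTL6B was above 1 CPM in the 2 groups with the highest neuron sums only, whereas DPF3 was highest in NHSM-v, whose neuron sum was below theirs, and SS18L1 was not raised in TL-CDK8i although its neuron sum was more than that of TL2i, where SS18L1 was higher.

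The summed level of 8 fibroblast genes was 1162 to 2372 CPM in primed libraries and highest in 4i/L/b (11681 to 15295 CPM), TL-CDK8i (8573 to 11101 CPM) and NHSM-v (8007 to 8593 CPM). It was 762 to 985 CPM in LCDM (EPS) and 406 to 450 CPM in E-NHSM, both under the primed range. Fibroblast genes called higher and lower were 7 and 1 of 8 tested in 4i/L/b and in TL2i, and 7 and 0 of 8 in NHSM-v. The calls were 6 and 0 of 8 in TL-CDK8i, 3 and 2 of 6 in t2iLGöY, 2 and 4 of 8 in LCDM (EPS) and 0 and 5 of 6 in E-NHSM. The summed level of 8 cell cycle genes was 3867 to 4380 CPM in primed libraries and under that range in every library of the 7 protocols, with 1894 to 2024 CPM in NHSM-v, the group with the lowest ACTL6A, and 1923 to 2117 CPM in 4i/L/b. The sum of 8 muscle genes was 237 to 281 CPM in primed libraries, 1549 to 2017 CPM in TL-CDK8i, 456 to 475 CPM in 4i/L/b, 399.7 to 486 CPM in E-NHSM and 204 to 232 CPM in TL2i. It was 67.7 to 74.6 CPM in NHSM-v, 52.7 to 61.1 CPM in LCDM (EPS) and 34.0 to 38.3 CPM in t2iLGöY, the 3 groups with the highest DPF3. At the floor were 4 of the 8 muscle genes in NHSM-v, 3 in LCDM (EPS), 4 in t2iLGöY and 2 in primed cells. Of the muscle genes tested, 0 of 4 were higher and 3 lower in NHSM-v, 0 of 5 and 4 in LCDM (EPS) and 0 of 4 and 4 in t2iLGöY. In TL-CDK8i 5 of 5 were higher, in 4i/L/b and E-NHSM 1 of 4 each, and in TL2i 2 of 5 were higher and 1 lower. The sum of 8 neural progenitor genes was 2347 to 2609 CPM in primed libraries. HES5 was at the floor in primed, E-NHSM, 4i/L/b, TL2i and TL-CDK8i, and SOX1 in primed cells. This sum was above the primed range in LCDM (EPS) (3977 to 4122 CPM) and t2iLGöY (2635 to 3051 CPM). It was under that range in E-NHSM (1239 to 1377 CPM) and TL-CDK8i (1953 to 2022 CPM), and the remaining groups overlapped with it. Single progenitor genes did not always follow the sum. Called higher and lower were 8 and 0 of 8 tested in LCDM (EPS), 6 and 1 of 8 in t2iLGöY and 5 and 2 of 7 in NHSM-v. The calls were 4 and 0 of 7 in 4i/L/b, 3 and 0 of 7 in TL2i, 2 and 1 of 6 in TL-CDK8i and 0 and 2 of 6 in E-NHSM. For each list here, 11.1% to 28.2% of all genes tested were higher and 15.1% to 30.6% lower. The part of these cell types and of cell division in the levels of the subunit genes was not tested.

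The genes whose log2 CPM followed the neuron-type members most closely over the 27 libraries were listed as a description, from 14751 genes compared. The libraries share their groups, so the coefficients reflect group means more than library-to-library variation. For ACTL6B these included SMPD3 (Pearson's r = 0.950) and PKIA (0.944), and SMPD3, a sphingomyelinase, had 3.95 ± 1.76 CPM in primed cells (SD, n = 6), 55.8 ± 5.26 CPM in t2iLGöY and 86.2 ± 8.71 CPM in LCDM (EPS) (SD, n = 3 each). For SS18L1 they were GBA2 (0.918), KMT2E (0.912) and MAP2 (0.909), the last a dendritic microtubule protein with 74.9 ± 25.6 CPM in primed cells (SD, n = 6) and 1340 ± 99.5 CPM in LCDM (EPS). For DPF1 they were ATMIN (0.862), C1H1orf61 (0.854) and RBFOX3 (0.847), and RBFOX3, a neuronal splicing factor, was highest in E-NHSM and LCDM (EPS) with 14.2 CPM each. For DPF3 they were DIO3 (0.981), SYNE1 (0.976) and KLC1 (0.972), of which DIO3, an enzyme that inactivates thyroid hormone, was at 0 to 0.556 CPM in primed libraries and 85.2 ± 5.26 CPM in t2iLGöY.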

How the data were processed

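Bulk RNA-seq libraries of 1 rhesus line were analysed, 6 of primed cells and 3 of each of 7 protocols. According to the labels and the study's methods, the authors made directional mRNA libraries and sequenced single reads. Per the labels' processing notes, bcl2fastq, cutadapt, HISAT2 and HTSeq were used. The deposited values are raw read counts for each gene symbol, with every library in its own column. The genome build and annotation are not given in the sources used here, nor is the treatment of reads shared between paralogs or from feeder cells, and either could shift the counts of single subunit genes. The columns of primed cells show the group only, and their letters, J and K, were not matched to the labels.

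TMM-normalised CPM over all 27 libraries and quasi-likelihood tests on the 2 groups of each comparison were computed with edgeR 4.0.16 (R 4.3.3, limma 3.58.1) on genes kept by filterByExpr, with Benjamini-Hochberg adjustment over all genes tested and a threshold of 0.05. Before the log2 ratios were taken, a prior count of 2 was added. The alternatives were DESeq2 1.42.0, upper-quartile normalisation, no filter, a filter at 10 counts per library, a log2 fold change of at least 1, 1 fit over all groups, each library left out, and, for the pairs of protocols, the replicate number as a block. Primed set J alone and K alone, and K against J, were added after the data had been seen. The functions were tested on simulated counts.

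The members, the lists of other subunits and regulators and the marker lists were chosen with earlier results of these data known. Named are all 10 members, those other subunits and regulators that passed with an absolute log2 fold change of at least 1 in 3 or more protocols, and the 3 genes most like each of ACTL6B, SS18L1, DPF1 and DPF3, of which 1 is not reported here. 2 listed symbols, BICRA and BICRAL, were found under older symbols. Replicates of a group differed by more than sampling noise (36 pairs, chi-square per gene 4.06 to 30.8). Same-numbered replicates of the compared protocols did not deviate together (correlations -0.127 to 0.011), so their numbers were not taken to pair them.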

Additional observations from a re-analysis of the deposited data

Results flagged for a closer look

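1 of 9 members with counts in primed cells had a primed library far from the rest. DPF3 was at 0.445 CPM (4 counts) in primed J1 and at 0.0706 CPM or 0 in the other libraries, so most of the primed level of this gene comes from 1 library. The rule behind this mark picks about 5% of groups of continuous values by chance, and its rate for counts this close to 0 was not computed.

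12 differences between related protocols passed the direct test. Between TL-CDK8i and TL2i, the log2 fold change of TL-CDK8i over TL2i was -1.34 for SS18L1, -0.55 for SMARCC2, -0.54 for PHF10, -0.36 for DPF2 and -2.14 for DPF3. Between NHSM-v and E-NHSM, NHSM-v was higher in SMARCC2 (1.02), SS18L1 (0.94), PHF10 (0.59) and DPF3 (9.34, a fitted value that depends on the prior count, since E-NHSM held 3 counts), and lower in DPF1 (-1.95), ACTL6A (-0.64) and SMARCC1 (-0.31). The neuron-type genes DPF1 and DPF3 thus moved in opposite directions between NHSM-v and E-NHSM. Each of the 12 passed in all 11 or 12 alternatives that could be fitted, except where a minimum log2 fold change of 1 was asked.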

How the results depend on the processing

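Of the member log2 fold changes under an alternative, 1195 kept their direction and side of the threshold, 59 no longer passed, 21 newly passed and 20 changed sign. Asking for an absolute log2 fold change of at least 1 left 4 members called in NHSM-v, 2 in 4i/L/b, 3 in TL2i, 3 in t2iLGöY, 4 in LCDM (EPS), 0 in E-NHSM and 0 in TL-CDK8i, 2 between TL-CDK8i and TL2i and 3 between NHSM-v and E-NHSM. The same requirement left 4, 5, 4, 5, 7, 2, 5, 4 and 4 of the other subunits in that order. This follows from its construction, as most member changes were smaller. A single fit over all groups called 14 other subunits in E-NHSM and 10 members in 4i/L/b, where ACTL6B, at 2 counts per library, was then tested.

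The log2 fold change of SMARCC2 changed sign with the primed set in 4 comparisons. Against K alone it was 0.30 in E-NHSM and 0.080 in TL-CDK8i, and against J alone -0.019 in 4i/L/b and -0.12 in TL2i, each the opposite sign to the value against all 6 libraries, and of these 4 only E-NHSM passed (adjusted p = 0.0232). K alone also called 5 members in E-NHSM, against 3, and turned the log2 fold change of DPF2 to -0.075 in NHSM-v and -0.033 in t2iLGöY. J alone turned DPF1 in t2iLGöY to -0.038 and SMARCC1 in LCDM (EPS) to 0.041. None of these 8 values was called against all primed libraries when only the compared groups were fitted.

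SS18 changed sign with upper-quartile normalisation between TL-CDK8i and TL2i (-0.013) and between NHSM-v and E-NHSM (-0.087), and in the latter also with at least 10 counts in every library (-0.013). Leaving out 1 library at a time gave ranges that span 0 for DPF2 in NHSM-v (-0.0068 to 0.092) and t2iLGöY (-0.017 to 0.17), DPF1 in t2iLGöY (-0.11 to 0.22) and SS18 between NHSM-v and E-NHSM (-0.060 to 0.063), all near 0 and not called.

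With the replicate number as a block, 5 members were called between TL-CDK8i and TL2i and 7 between NHSM-v and E-NHSM, the same numbers as without it, and same-numbered libraries did not deviate together. No paired analysis was possible against primed cells because their columns carry none of the labels' numbers.

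Depth limits ACTL6B and DPF3 below about 3 counts per library, and DPF1, with 7 to 475 counts per library, lost its calls in NHSM-v and TL2i when single libraries were left out.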
